A study of Mus musculus with 12 samples.

Results

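Re-expression of PROSER1 in PROSER1 KO mouse embryonic stem cells (mESCs) was compared between 2 stages, to ask which genes responded to it differently after exit from the stem cell state than in that state. For each gene the log2 difference between KO+Rescue and KO cells at day 2 was set against the same difference in mESCs. The comparison used 8 of the 12 RNA-seq libraries of the series, 2 in each of KO+Rescue day 2, KO day 2, KO+Rescue mESC and KO mESC. The levels in the 4 WT libraries are given as a description of cells without the Proser1 edit. The WT libraries also entered the model, where they added to the estimate of the spread and to the filter on low values. It covered the 15341 of 35976 annotated genes whose mean normalised count over the 12 libraries was at least 10. The gene just inside that limit, BB287469, had a mean of 10.005, and the gene just outside it, Mettl7a3, had a mean of 9.99.

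The mESCs grew on gelatin in serum and serum replacement with LIF, the GSK3 inhibitor CHIR99021 and the MEK inhibitor PD0325901, and day 2 cells had spent 48 h as a monolayer in N2B27, a serum-free neural differentiation medium for which neither inhibitor nor LIF was listed. A contrast of the stages therefore spans time, medium and inhibitors, which cannot be told apart. Per the paper, the mESC lines came from blastocysts of mice with floxed Tet2 alleles (TET2 fl/fl), a background that all groups share. The KO line was 1 clone made with Cas9 and a guide in Proser1 exon 1. KO+Rescue was that line carrying a PiggyBac insertion of FLAG-tagged Proser1, selected with blasticidin and again subcloned, so the clone and the re-expressed protein cannot be told apart in any KO+Rescue against KO value. The deposited columns name these groups by a line code with and without a letter R, and reading them as KO+Rescue and KO is an inference. Reading the columns of the starting day as mESC is also an inference. Per the paper's methods, RNA of that day was extracted as the cells were put into N2B27. The replicates, lettered A and B, were labelled biological, but how the cultures were kept separate was not stated, so the p-values reflect the spread among these libraries alone.

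PROSER1 is a nuclear partner of the TET dioxygenases, which oxidise methylated cytosines at CpG sites. The genes with a stage-dependent response included several of the Nodal pathway. Nodal is a TGF-beta family ligand that signals through activin receptors and SMAD2 and SMAD3 with FOXH1. It induces its own gene, and it induces the secreted inhibitors Lefty1 and Lefty2, which close a negative feedback loop. In mESCs the pathway is active, and during differentiation sustained Nodal signalling favours mesendoderm over neuroectoderm.

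The guide target is shown because it marks where the KO allele was cut in all 8 KO and KO+Rescue libraries. It lies at chr3:53371720-53371738 of GRCm39, on the + strand, within the coding part of Proser1 exon 1 (53370996 to 53371740), is followed in the genome by the bases agg, and matched the genome at 1 place.
Proser1 guide target: gtgctggatgaaattcgaa

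Promoters of stage-dependent genes are shown because TET enzymes act at CpG sites, which are in capitals below. The windows hold the 250 bases before a RefSeq transcript start of each gene (GRCm38.p6), and were read for 7 of the 12 stage-dependent genes named here. Sema6a was not looked up, and no promoter entry was found for Lefty1, Lefty2, Dmrt1 and Peg10. The motif CG reads the same on both strands. Over 32851 promoters of this length the median was 6 CpG sites. Trh, on the - strand at chr6:92244651-92244900, had 25, and 10.7% of promoters had as many or more. Eomes, on the + strand at chr9:118477939-118478188, had 8 (43.0% of promoters had as many or more), and Nodal, on the + strand at chr10:61417722-61417971, had 3 (71.0%). The others were Trap1a with 7, Ube2l6 with 11, Pid1 with 12 and Foxn4 with 17. The Pid1 and Foxn4 windows lie inside the span of the gene, so their counts are not those of its outermost start. The windows read thus ranged from 3 to 25 CpG sites, against quartiles of 2 and 16 over all promoters, and no methylation was measured in these libraries.
Trh: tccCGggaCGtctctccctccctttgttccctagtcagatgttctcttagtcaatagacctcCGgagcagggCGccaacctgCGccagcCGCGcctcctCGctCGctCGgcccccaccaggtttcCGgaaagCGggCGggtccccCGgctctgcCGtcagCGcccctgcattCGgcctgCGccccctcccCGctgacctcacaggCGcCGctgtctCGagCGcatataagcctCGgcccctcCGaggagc
Eomes: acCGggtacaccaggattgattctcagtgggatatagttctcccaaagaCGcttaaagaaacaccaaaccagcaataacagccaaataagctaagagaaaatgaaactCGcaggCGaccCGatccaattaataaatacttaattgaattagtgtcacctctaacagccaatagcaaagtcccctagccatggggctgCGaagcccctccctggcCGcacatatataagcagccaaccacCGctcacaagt
Nodal: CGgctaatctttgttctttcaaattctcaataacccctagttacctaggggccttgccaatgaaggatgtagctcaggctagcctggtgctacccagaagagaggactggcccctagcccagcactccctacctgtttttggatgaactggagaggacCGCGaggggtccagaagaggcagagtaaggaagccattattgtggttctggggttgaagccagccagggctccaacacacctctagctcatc

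The libraries held 38634668 to 66450803 reads in genes, a 1.72-fold range, with the lowest total in KO+Rescue mESC replicate B. The median absolute log2 difference between replicates A and B was between 0.142 and 0.226 in the KO+Rescue and KO groups, against 0.301 and 0.328 in the WT groups at day 2 and in mESCs. The summed normalised counts of 5 stem cell markers (Pou5f1, Sox2, Nanog, Zfp42 and Esrrb) fell to 74830 to 82730 in KO+Rescue day 2 libraries, against 188600 to 209200 in KO+Rescue mESC libraries, and to 83510 to 91230 in KO day 2 libraries, against 194400 to 206300 in KO mESC libraries. Those of 4 markers of cells leaving pluripotency (Fgf5, Otx2, Dnmt3b and Pou3f1) were 77090 to 77980 in KO+Rescue and 88650 to 90910 in KO at day 2, against 7250 to 8459 and 10150 to 11240 in mESCs. Both lines thus had lower sums of stem cell markers and higher sums of markers of leaving pluripotency at day 2. Most of each day 2 stem cell sum was Pou5f1 (66470 and 75180 in KO+Rescue, 84290 and 76370 in KO). Esrrb was at 90.4 and 131 in KO+Rescue and at 103 and 126 in KO at day 2. In mESCs Esrrb was at 10450 and 10500 in KO+Rescue and at 8632 and 7767 in KO. Nanog also fell in both lines, so the sums do not stand for each marker. Most of each day 2 sum of leaving-pluripotency markers was Dnmt3b (62490 and 63620 in KO+Rescue, 69700 and 72060 in KO). In bulk RNA, fewer cells of a type and less RNA per cell cannot be told apart.

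Proser1 (chr3:53463795-53481755, GRCm38.p6) was raised in KO+Rescue cells at both stages. Its normalised counts were 3041 and 2994 in KO+Rescue and 872 and 1067 in KO at day 2, and 2828 and 3090 in KO+Rescue and 576 and 502 in KO mESCs. KO+Rescue and KO libraries did not overlap at either stage. The log2 difference was 1.64 ± 0.20 (SE) at day 2 and 2.46 ± 0.20 in mESCs (adjusted p = 0.00122 and 0.000222, limma). Between the stages this differed by -0.81 ± 0.28, which did not pass the test (adjusted p = 0.373, limma). Counts of KO cells were higher at day 2 than in mESCs (log2 0.84 ± 0.20, adjusted p = 0.00261, limma), while the KO+Rescue counts differed by 0.03 ± 0.20. Reads of the inserted coding sequence and of the edited gene fall in the same row of the table, and WT libraries held 829 and 685 at day 2 and 889 and 551 in mESCs.

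KO+Rescue and KO cells were first compared within each stage. At day 2, 281 genes were called (1.83% of those tested), of which 77 were higher (0.502%) and 204 lower (1.33%) in KO+Rescue, or 32 higher and 144 lower with equal library totals. In mESCs, 232 were called (1.51%), 73 higher (0.476%) and 159 lower (1.04%), or 23 higher and 142 lower with equal library totals. A call is a Benjamini-Hochberg adjusted p under 0.05 over all 15341 genes in limma on log2(normalised count + 1). The counts depended on the fit, with 742 genes at day 2 and 386 in mESCs in DESeq2, and 1256 and 529 in limma with only the 8 KO+Rescue and KO libraries. Of the limma calls over 12 libraries, 39 genes were called at both stages in the same direction, 5 higher and 34 lower, which is 13.9% of the day 2 calls and 16.8% of the mESC calls. The libraries of the 2 stages are separate, but the clones are the same. Of the day 2 calls 84.7% had the same sign in mESCs, and of the mESC calls 80.2% had the same sign at day 2, against 61.3% of all tested genes. Across genes, which are not independent replicates, the 2 differences correlated with r = 0.267 and rho = 0.307. Without 1 library, 32 (KO replicate A), 43 (KO replicate B), 53 (KO+Rescue replicate A) and 61 genes (KO+Rescue replicate B) were called at day 2, and 22 (KO replicate A), 44 (KO replicate B), 170 (KO+Rescue replicate A) and 44 (KO+Rescue replicate B) in mESCs.

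A stage dependence was called for 13 genes (0.0847% of those tested). Of these, 5 had a higher re-expression change at day 2 than in mESCs (0.0326%) and 8 a lower one (0.0521%), against 7 and 6 with TMM scaling and 3 and 4 with equal library totals. On recovered whole reads edgeR called 15 genes (0.0978%), 9 higher and 6 lower, and DESeq2 90 (0.587%), 38 higher and 52 lower. With only the 8 KO+Rescue and KO libraries limma called 61, 28 higher and 33 lower. Leaving out any 1 of the 8 libraries left 1 or 2 calls. The median log2 difference between the stages over all tested genes was -0.05, its median SE was 0.28, and 1418 genes (9.24%) had an unadjusted p under 0.05. Of the 473 genes called at 1 or both stages, 13 were called by stage. The last gene inside the threshold was Pid1 (adjusted p = 0.0472, limma) and the first outside it was Asb9 (adjusted p = 0.0519, limma). In 10 of the 13 genes the change had opposite signs at the 2 stages. In 8 it was larger in size at day 2, where 9 of the genes were called, and 5 were called in mESCs. Lefty1 was called at both, in opposite directions. KO+Rescue and KO libraries did not overlap for 12 of the 13 genes at day 2, where this held for 60.9% of all tested genes, and for 12 in mESCs, where it held for 45.5%. The 13 genes were called on these same libraries, and a call favours groups that lie apart. These counts are therefore no separate support for the calls.

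**Figure D1:**
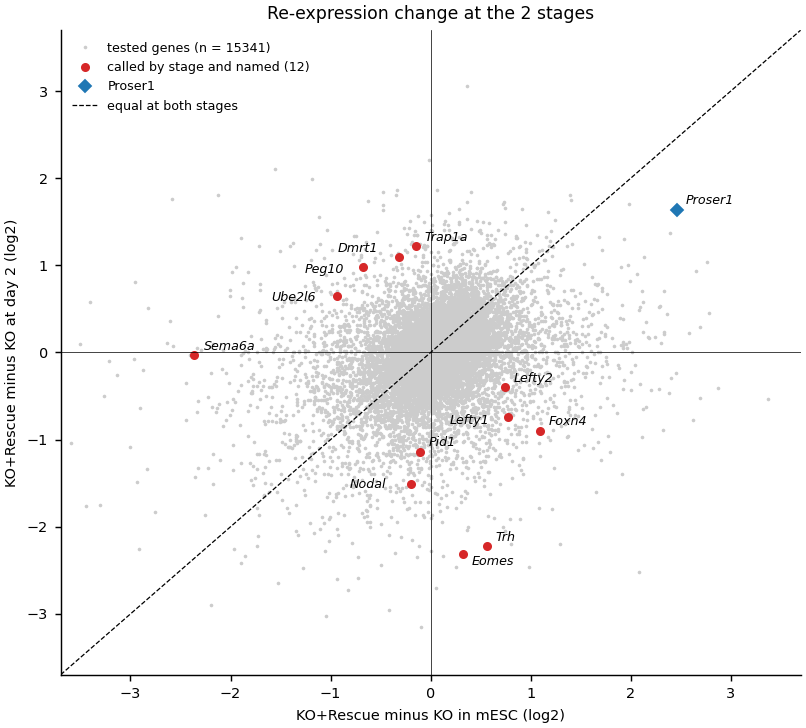
Log2 difference between KO+Rescue and KO cells in mESCs (x axis) and at day 2 (y axis) for the 15341 tested genes (grey points), with 12 of the 13 genes called by stage in red and Proser1 as a blue diamond. On the dashed line the difference is equal at both stages. These genes lie away from that line, with Trh and Eomes lowest at day 2 (-2.22 and -2.31) and Sema6a farthest left in mESCs (-2.36).

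The genes of the ligand Nodal and of both Lefty inhibitors had a lower re-expression change at day 2 than in mESCs. Nodal (chr10:61417972-61425338, GRCm38.p6) had normalised counts of 855 and 871 in KO+Rescue and 2583 and 2355 in KO cells at day 2, and of 4432 and 4509 in KO+Rescue and 5009 and 5263 in KO mESCs. The KO+Rescue libraries were below the KO libraries at both stages, by much more at day 2. The log2 difference was -1.51 ± 0.14 at day 2 (adjusted p = 0.000479, limma) and -0.20 ± 0.14 in mESCs (adjusted p = 0.585, limma), and the ratio of KO+Rescue to KO was 2.49-fold lower at day 2 than in mESCs (log2 -1.31 ± 0.20, adjusted p = 0.036, limma). WT libraries held 1269 and 1716 at day 2 and 3971 and 4534 in mESCs.

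Lefty1 (chr1:180935022-180938401), a secreted inhibitor of Nodal, had 1918 and 2165 in KO+Rescue and 3898 and 2971 in KO cells at day 2, and 1786 and 1646 in KO+Rescue and 1085 and 927 in KO mESCs. KO+Rescue libraries were the lower ones at day 2 (log2 -0.74 ± 0.15, adjusted p = 0.0312, limma) and the higher ones in mESCs (0.77 ± 0.15, adjusted p = 0.0267, limma). Day 2 minus mESC, this came to -1.51 ± 0.22 (adjusted p = 0.0277, limma). Lefty1 was higher at day 2 than in mESCs in KO cells (log2 1.76 ± 0.15) and in WT cells (2.09 ± 0.15), where it held 6976 and 8595, against 1808 and 1830 in WT mESCs. In KO+Rescue cells the stage change did not pass the test (0.25 ± 0.15, adjusted p = 0.181, limma).

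Lefty2 (chr1:180893108-180899107), the second inhibitor, had 495 and 439 in KO+Rescue and 629 and 604 in KO cells at day 2, and 5944 and 5471 in KO+Rescue and 3514 and 3340 in KO mESCs. The groups were separated at both stages, with KO+Rescue below KO at day 2 (log2 -0.40 ± 0.12, adjusted p = 0.126, limma) and above it in mESCs (0.74 ± 0.12, adjusted p = 0.0124, limma). The difference between the stages was -1.14 ± 0.18 (adjusted p = 0.036, limma). Lefty1 and Lefty2 are similar copies whose reads the counting could lose or assign to the other gene, and their values are uncertain to that extent. WT mESCs had 8260 and 8220, above both edited lines, and WT cells 1901 and 2266 at day 2.

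The Nodal and activin pathway list holds ligands, receptors, transducers, inhibitors and induced genes. Of 18 tested members out of 20, the 3 above were called by limma (all lower), where 0.0847% of all tested genes were called. A negative difference between the stages was seen in 13, and the median was -0.25, against -0.05 over all tested genes. Of the 90 genes that DESeq2 called (0.587% of those tested), 6 were in this list, among them Nodal, Lefty1, Lefty2, Smad7 and Fst. Of the 15 that edgeR called (0.0978%), Nodal and Lefty1 were in it. Within a stage, limma called 5 members lower in KO+Rescue at day 2, where 1.33% of all tested genes were, and none higher. In mESCs it called 2 members higher, where 0.476% of all tested genes were, and none lower. The list was chosen with earlier results of these data known, so these shares do not test the pathway.

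Fst, which encodes the activin-binding protein follistatin, had 568 and 480 in KO+Rescue and 2050 and 1951 in KO cells at day 2, and 566 and 509 in KO+Rescue and 713 and 648 in KO mESCs. The groups were apart at both stages, by more at day 2 (log2 -1.94 ± 0.20, adjusted p = 0.000555, limma). Its difference between the stages was -1.60 ± 0.29, outside the limma threshold (adjusted p = 0.0656, limma) and inside that of DESeq2 (adjusted p = 0.000229). Smad7, an intracellular inhibitor of TGF-beta family receptors, had 402 and 412 in KO+Rescue and 650 and 772 in KO cells at day 2, and 1304 and 1435 in KO+Rescue and 1034 and 1055 in KO mESCs, with a difference of -1.19 ± 0.21 (adjusted p = 0.059, limma).

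The receptors and transducers of the pathway gave smaller values, and none was called. Day 2 minus mESC, they were -0.39 ± 0.26 for Acvr1b, -0.10 ± 0.27 for Acvr2b and 0.48 ± 0.22 for Acvr2a, which encode activin receptors. It was -0.08 ± 0.17 for Smad2, 0.14 ± 0.35 for Smad3 and -0.03 ± 0.25 for Foxh1. Tdgf1, the co-receptor also called Cripto, gave -0.83 ± 0.41, and its KO+Rescue and KO libraries were apart at day 2 (19400 and 20080 in KO+Rescue, 30970 and 30610 in KO). The convertases Furin and Pcsk6, which process Nodal, gave 0.02 ± 0.28 and 0.10 ± 0.28.

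**Figure D2:**
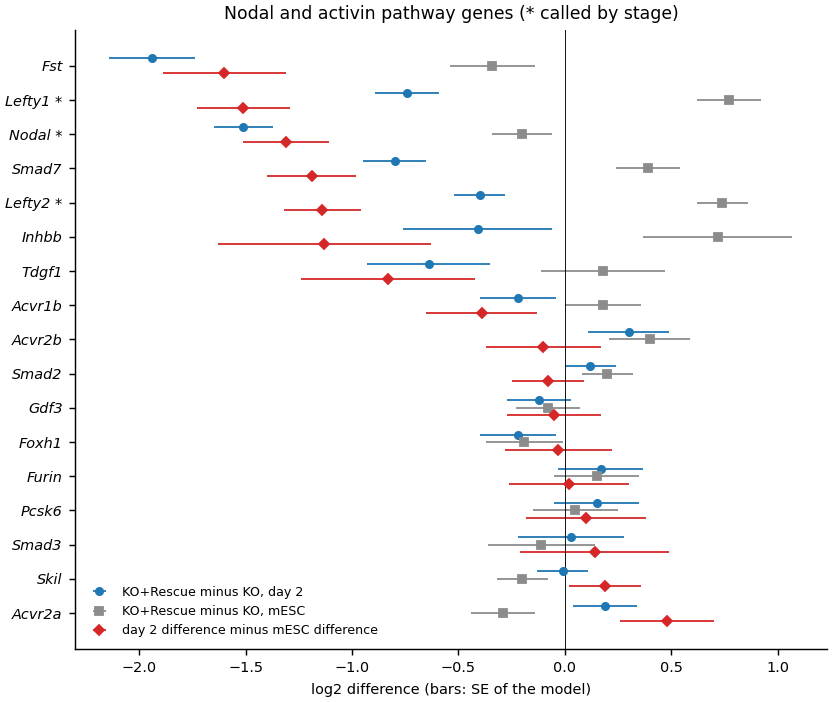
Log2 differences of 17 of the 18 tested Nodal and activin pathway genes, with the SE of the model as bars. Blue circles give KO+Rescue minus KO at day 2, grey squares the same in mESCs, and red diamonds the day 2 difference minus the mESC difference. The genes marked with a star were called by stage: Lefty1 at -1.51, Nodal at -1.31 and Lefty2 at -1.14.

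Eomes (chr9:118478186-118486132), a T-box factor of mesendoderm and trophoblast induced by Nodal, had 73.9 and 51.7 in KO+Rescue and 310.2 and 312 in KO cells at day 2, and 756 and 657 in KO+Rescue and 571 and 556 in KO mESCs. The KO+Rescue libraries were below the KO libraries at day 2 and above them in mESCs. The ratio of KO+Rescue to KO was 6.21-fold lower at day 2 than in mESCs (log2 -2.64 ± 0.35, adjusted p = 0.0158, limma). Eomes was lower at day 2 than in mESCs in every genotype, by 11.2-fold in KO+Rescue, 1.81-fold in KO and 9.81-fold in WT cells. WT libraries held 117 and 65.2 at day 2 and 927 and 813 in mESCs.

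Eomes was the 1 called gene among 15 tested members of the mesendoderm list, where 0.0847% of all tested genes were called. In this list 11 members had a negative difference and the median was -0.35, against -0.05 over all tested genes. T, the primitive streak factor Brachyury, fell with re-expression at day 2 (22.3 and 21.6 in KO+Rescue, 90.1 and 73.3 in KO; log2 -1.84 ± 0.26, adjusted p = 0.00326, limma). In mESCs T had 85.7 and 123 in KO+Rescue and 225 and 171 in KO, and its difference between the stages was -0.91 ± 0.37 (adjusted p = 0.46, limma), so a stage dependence was not shown for it. Wnt3, a ligand that acts upstream of T, had 63.4 and 61.1 in KO+Rescue and 179.5 and 173 in KO cells at day 2 and a difference between the stages of -0.15 ± 0.48. The sum of the mesoderm and mesendoderm markers T, Eomes, Mixl1 and Mesp1 was 98.6 to 119 in KO+Rescue and 403 to 421 in KO at day 2, and 798 to 867 in KO+Rescue and 734 to 808 in KO mESCs, with Mesp1 at 0 in both KO day 2 libraries. Most of each sum was Eomes, itself called by stage, so the sums add nothing separate to its values. At day 2 Mixl1 overlapped (18.8 and 20.7 in KO+Rescue, 20.7 and 18.0 in KO), and Mesp1 was higher in KO+Rescue (3.52 and 4.70). The part of cell composition in the Nodal pathway values was not tested. The sums of primitive endoderm markers (Gata4, Gata6, Sox17 and Pdgfra; 60.1 to 73.9 in KO+Rescue, 107 to 113 in KO at day 2) and of fibroblast or feeder markers (Col1a1, Col1a2, Col3a1, Postn, Lum and Dcn; 234 to 255 in KO+Rescue, 505 to 510 in KO at day 2) were also lower in KO+Rescue. Most of the fibroblast or feeder sum was Dcn (188 and 179 in KO+Rescue, 377 and 384 in KO at day 2), with Postn and Lum under 1 in every KO+Rescue and KO library. Early neural markers (Sox1, Pax6, Nes and Hes5) summed to 3850 to 3962 in KO+Rescue and 4274 to 4371 in KO at day 2. Most of that was Nes, and Sox1 was higher in KO+Rescue (181 and 179 against 140 and 154). Trophoblast markers (Cdx2, Elf5, Gata3 and Hand1) summed to 19.7 to 31.7 and 50.1 to 84.2. Blood and endothelium sums overlapped at day 2.

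Trh (chr6:92242061-92244650), the precursor of thyrotropin-releasing hormone, had the lowest difference between the stages among the 13 genes. It had 2685 and 2413 in KO+Rescue and 12230 and 11450 in KO cells at day 2, and 21570 and 21590 in KO+Rescue and 14170 and 15200 in KO mESCs. KO+Rescue libraries were the lower ones at day 2 and the higher ones in mESCs. The log2 difference was -2.22 ± 0.13 at day 2 (adjusted p = 6.77e-06, limma) and 0.56 ± 0.13 in mESCs (adjusted p = 0.064, limma), and the ratio was 6.84-fold lower at day 2 than in mESCs (-2.77 ± 0.19, adjusted p = 3.06e-05, limma). Trh was 8.48-fold lower at day 2 than in mESCs in KO+Rescue cells and 5.02-fold lower in WT cells, which held 5200 and 5718 at day 2 and 24520 and 30550 in mESCs. In KO cells it was 1.24-fold lower, which did not pass the test (adjusted p = 0.0608, limma). Trh was called in all 19 alternative analyses of the difference between the stages. The other 12 calls were each lost whenever 1 of the 8 libraries was left out, with no change of sign.

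Pid1 (chr1:84036293-84339842), a phosphotyrosine interaction domain protein studied in insulin signalling, had 604 and 553 in KO+Rescue and 1262 and 1285 in KO cells at day 2, and 949 and 1015 in KO+Rescue and 1061 and 1063 in KO mESCs. KO+Rescue libraries were below KO libraries at both stages, by more at day 2. Its difference between the stages was -1.02 ± 0.17 (adjusted p = 0.0472, limma). Pid1 was lower at day 2 than in mESCs in KO+Rescue cells (log2 -0.76 ± 0.12) and WT cells (-0.35 ± 0.12), and the 0.26 ± 0.12 of KO cells did not pass the test.

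Foxn4 (chr5:114254164-114274418), a forkhead factor of retinal and spinal cord progenitors, had 150.2 and 140 in KO+Rescue and 273 and 268 in KO cells at day 2, and 78.4 and 103 in KO+Rescue and 44.8 and 39.1 in KO mESCs. KO+Rescue libraries were the lower ones at day 2 (log2 -0.90 ± 0.23, adjusted p = 0.0654, limma) and the higher ones in mESCs (1.09 ± 0.23, adjusted p = 0.0324, limma). Its stage dependence was -1.98 ± 0.32 (adjusted p = 0.0426, limma). Foxn4 rose at day 2 in every genotype, by 6.33-fold in KO, 1.60-fold in KO+Rescue and 2.26-fold in WT cells.

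**Figure D3:**
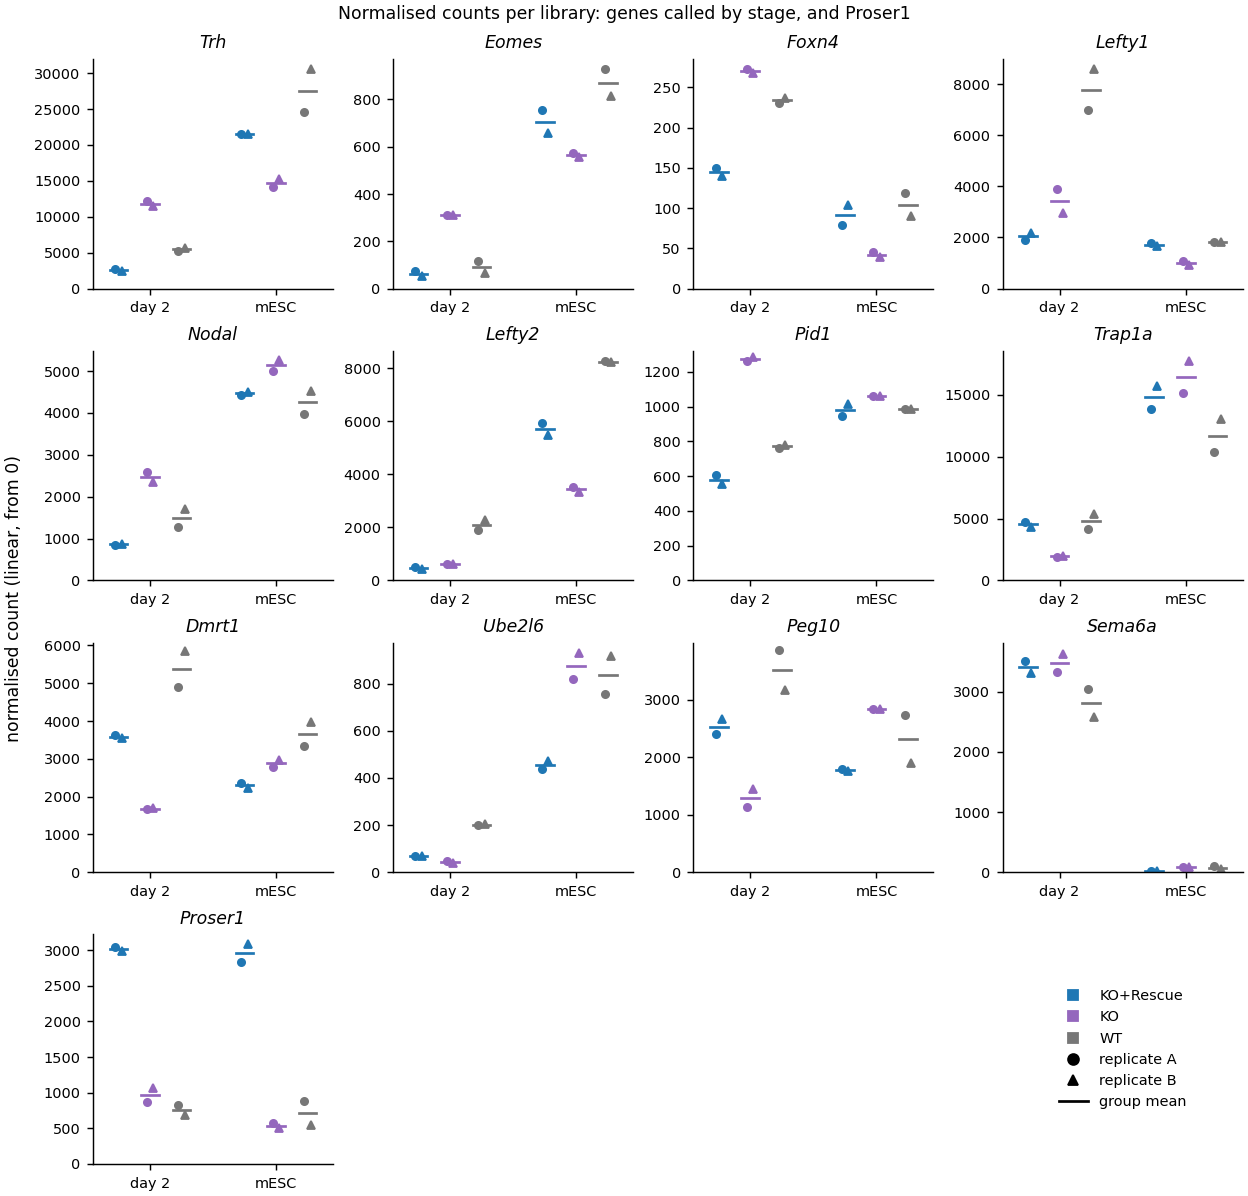
Normalised counts (y axis, linear from 0) of each library for 12 of the 13 genes called by stage and for Proser1, at day 2 and in mESCs, with KO+Rescue in blue, KO in purple and WT in grey. Circles are replicate A, triangles replicate B and lines the group means. Peg10 and Dmrt1 are higher at day 2 than in mESCs in KO+Rescue and WT cells and lower in KO cells, and Trh stays high at day 2 in KO cells (12230 and 11450).

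Of the 5 genes with a higher re-expression change at day 2, 2 changed with stage in opposite directions in KO+Rescue and KO cells. Dmrt1 (chr19:25505618-25604328), a DM-domain transcription factor of the testis and germ line, had 3631 and 3539 in KO+Rescue and 1662 and 1699 in KO cells at day 2, and 2372 and 2237 in KO+Rescue and 2787 and 2972 in KO mESCs. KO+Rescue libraries were the higher ones at day 2 and the lower ones in mESCs (difference between the stages 1.41 ± 0.18, adjusted p = 0.0154, limma). Dmrt1 rose at day 2 in KO+Rescue cells (log2 0.64 ± 0.13) and WT cells (0.56 ± 0.13) and fell in KO cells (-0.78 ± 0.13), and all 3 stage changes passed the test (adjusted p = 0.000901, 0.00267 and 0.000192, limma).

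Peg10 (chr6:4747306-4760517), a paternally expressed, retrotransposon-derived gene needed for the placenta, had 2398 and 2665 in KO+Rescue and 1138 and 1439 in KO cells at day 2, and 1789 and 1763 in KO+Rescue and 2848 and 2835 in KO mESCs. The lines changed order between the stages (difference 1.66 ± 0.24, adjusted p = 0.0296, limma). Peg10 rose at day 2 in KO+Rescue cells (0.51 ± 0.17) and WT cells (0.62 ± 0.17) and fell in KO cells (-1.15 ± 0.17). Sgce, its paternally expressed neighbour that encodes epsilon-sarcoglycan, had 346 and 464 in KO+Rescue and 229.7 and 209.5 in KO cells at day 2, and 98.3 and 98.0 in KO+Rescue and 132 and 179 in KO mESCs. Its difference was 1.51 ± 0.35, which limma did not call (adjusted p = 0.202, limma) and DESeq2 did (adjusted p = 0.013). Peg10 was the 1 limma call among 31 tested imprinted genes, whose median was 0.13, where 0.0847% of all tested genes were called. Rian, a maternally expressed noncoding RNA, fell with re-expression at both stages (log2 -1.40 ± 0.21 at day 2 and -1.25 ± 0.21 in mESCs; adjusted p = 0.00582 and 0.0127, limma).

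Sema6a (chr18:47245254-47371200), a transmembrane semaphorin of axon guidance, differed between the lines in mESCs and not detectably at day 2. It had 3508 and 3313 in KO+Rescue and 3323 and 3637 in KO cells at day 2, where the groups overlapped, and 14.6 and 14.3 in KO+Rescue and 78.4 and 78.2 in KO mESCs, where they were apart. The log2 difference was -0.03 ± 0.21 at day 2 and -2.36 ± 0.21 in mESCs (adjusted p = 0.961 and 0.000362, limma), and the difference between the stages was 2.33 ± 0.30 (adjusted p = 0.0154, limma). Sema6a was 221-fold higher at day 2 than in mESCs in KO+Rescue cells, 43.8-fold higher in KO cells and 38.0-fold higher in WT cells. WT mESCs held 94.8 and 56.0.

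Trap1a and Ube2l6 were lower at day 2 than in mESCs in every genotype, and less so in KO+Rescue than in KO cells. Trap1a (chrX:139333683-139338169), which encodes the tumour rejection antigen P1A, had 4758 and 4274 in KO+Rescue and 1915 and 1954 in KO cells at day 2, and 13850 and 15730 in KO+Rescue and 15170 and 17760 in KO mESCs. The groups overlapped in mESCs and were apart at day 2 (difference between the stages 1.37 ± 0.22, adjusted p = 0.0426, limma). Ube2l6 (chr2:84798828-84810003), the conjugating enzyme of the ubiquitin-like protein ISG15, had 68.1 and 66.7 in KO+Rescue and 46.5 and 38.9 in KO cells at day 2, and 437 and 472 in KO+Rescue and 818 and 929 in KO mESCs. Its libraries changed order between the stages (1.59 ± 0.25, adjusted p = 0.0426, limma). Ube2l6 was 6.66-fold lower at day 2 in KO+Rescue, 20.0-fold lower in KO and 4.13-fold lower in WT cells.

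The stage changes of the 13 genes in each genotype, which share libraries with the difference between the stages, stood side by side as follows. In KO+Rescue cells 12 of the 13 changed with stage (58.2% of all tested genes did), 4 of them up and 8 down, and all 12 had the sign of the WT change. In KO cells 11 changed (60.1% of all tested genes did), of which 9 had the WT sign and Dmrt1 and Peg10 did not. In WT cells all 13 changed (51.9% of all tested genes did). The log2 stage change of KO+Rescue cells was nearer to that of WT cells than the KO change for 8 of the 13 genes and farther for 5. The shares of all tested genes with the WT sign, or nearer to WT, are not given here. The 13 genes were also picked because their KO+Rescue and KO stage changes differ, so a return to the WT course was not tested. Across all tested genes the difference between the stages was almost uncorrelated with the WT stage change (r = 0.0217, rho = -0.0367).

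Of 44 gene lists, 40 held no limma call. They had 653 tested members in all, counting each gene once, of which 114 (17.5%) had an unadjusted p under 0.05, against 9.24% of all tested genes. The lists were chosen with earlier results of these data known, so this higher share is not evidence about them. edgeR called 2 of these members (0.0978% of all tested genes were called) and DESeq2 18 (0.587%). In the core pluripotency list Nanog had 590.2 and 564 in KO+Rescue and 1691 and 1621 in KO cells at day 2, and 41770 and 42400 in KO+Rescue and 43830 and 45750 in KO mESCs. The groups were apart at both stages, by more at day 2, and the difference between the stages was -1.43 ± 0.27 (adjusted p = 0.0758 by limma and 0.000356 by DESeq2). Among BMP targets Id3, an inhibitor of basic helix-loop-helix factors, gave -1.0 ± 0.17 (adjusted p = 0.059 by limma and 0.000147 by DESeq2). Lef1, a nuclear effector of Wnt signalling, had 2389 and 2304 in KO+Rescue and 1257 and 1342 in KO cells at day 2, and 144 and 96.2 in KO+Rescue and 236 and 198 in KO mESCs, and gave 1.72 ± 0.31 (adjusted p = 0.0656 by limma and 0.0441 by edgeR). Ddit3, the stress-induced factor CHOP, had 2620 and 2817 in KO+Rescue and 1624 and 1308 in KO cells at day 2, and 152 and 153 in KO+Rescue and 185 and 189 in KO mESCs, and gave 1.19 ± 0.22 (adjusted p = 0.0656 by limma and 0.049 by edgeR).

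The naive pluripotency list had a median of 0.06 over 22 members, early neural genes 0.26 over 16, neuronal genes -0.29 over 22, the DNA methylation machinery 0.04 over 20, Polycomb genes -0.10 over 27 and the MLL3 and MLL4 complex -0.05 over 10. Cholesterol and fatty acid synthesis genes had a median of -0.20, with 29 of 33 negative, and cytosolic ribosomal protein genes 0.03 over 20. The median over all tested genes was -0.05. No member of these 8 lists was called by stage. All 10 mitochondrially encoded genes were negative, with a median of -0.81. They included ND2, a subunit of respiratory complex I, at 5585 and 4916 in KO+Rescue and 7654 and 8038 in KO at day 2, and at 13490 and 23160 in KO+Rescue and 13480 and 16390 in KO mESCs. The higher KO+Rescue mESC value of ND2 came from replicate B, the shallowest library, while at day 2 its KO+Rescue libraries were both below the KO libraries. The list median of KO+Rescue minus KO was -0.49 at day 2 and 0.28 in mESCs. By stage, 5 members had an unadjusted p under 0.05 (limma), and no gene of the list was called.

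Of the 9 developmental genes that the study named as targets, 8 were tested. None was called by stage in limma or edgeR, and DESeq2 called 1, where it called 0.587% of all tested genes. Their median was -0.92. The list was chosen by the study on these samples and is not independent evidence of a direction. Barx1, a homeobox gene of craniofacial mesenchyme, had 36.4 and 47.0 in KO+Rescue and 101 and 96.5 in KO cells at day 2, and 7.32 and 14.3 in KO+Rescue and 2.24 and 2.70 in KO mESCs, and gave -2.93 ± 0.69 (adjusted p = 0.202, limma). The values were -0.75 ± 0.38 for Cbx8, which encodes a Polycomb protein, -0.74 ± 0.45 for Pax6, an eye and brain factor, -1.08 ± 1.15 for Prdm8, 0.55 ± 0.64 for Tbx15 and 1.92 ± 1.02 for Mef2c. The sign of Prdm8 turned in edgeR (1.44) and DESeq2 (0.22), and that of Tbx15 when 1 library was left out (-0.04). Prdm8 was at 0 in both KO+Rescue mESC libraries, and the normalised counts of Eya4, which was not tested, were at most 34.4 in any library.

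**Figure D4:**
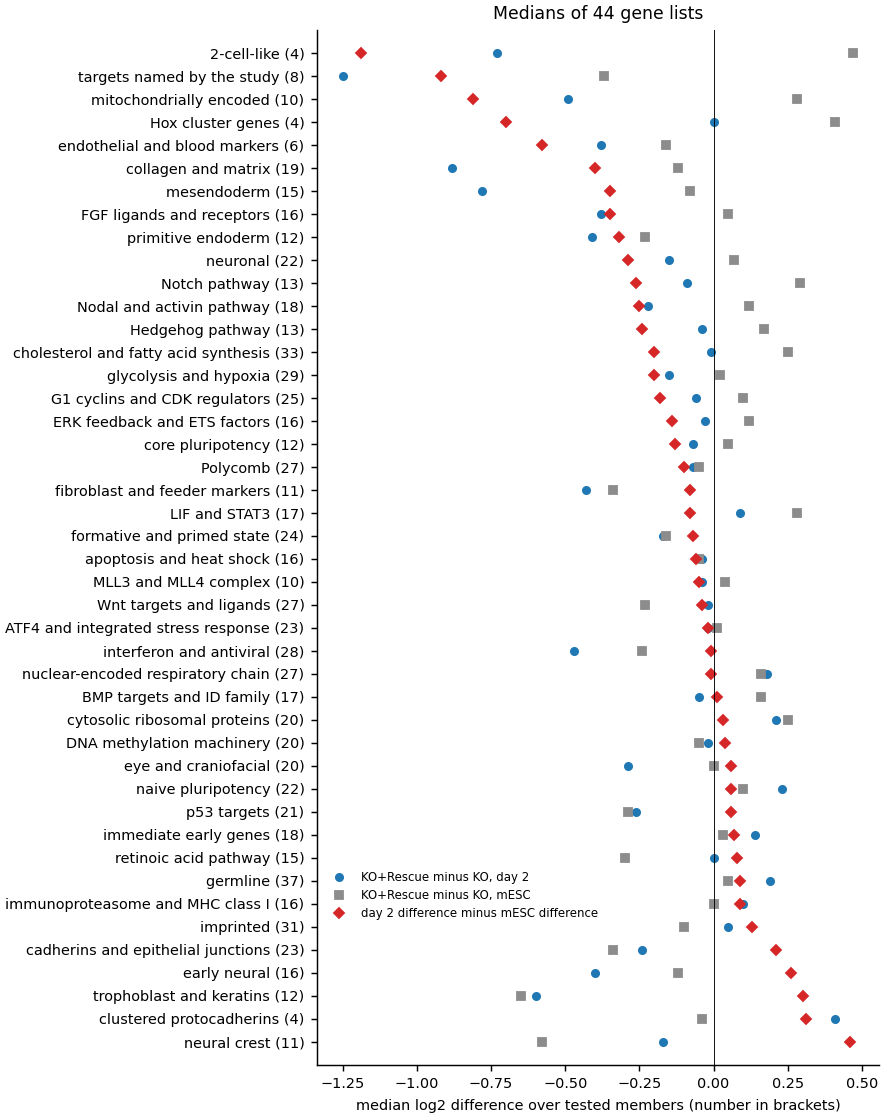
Median log2 difference over the tested members of each of the 44 gene lists (number of members in brackets). Blue circles give KO+Rescue minus KO at day 2, grey squares the same in mESCs, and red diamonds the day 2 difference minus the mESC difference. Most red diamonds lie within 0.5 of 0, and lists of few members, such as the 2-cell-like list (4 genes, -1.19), lie farther out.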

How the data were processed

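RNA was measured by paired-end RNA-seq (NEBNext Ultra II Directional) in 12 libraries, 2 for each of 6 groups. Per the labels and methods, the authors trimmed reads with Trimmomatic, mapped them to mm10 with STAR, counted fragments per RefSeq gene with featureCounts, removed Y-chromosome reads and divided by DESeq2 size factors. Versions and the strand setting were not given in the sources used here, so overlapping genes may share reads. The deposited values are this normalised signal, and 100% of them gave whole reads within 0.001. Fold changes are on the log2(value + 1) scale, which understates changes of low genes.

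limma 3.58.1 (R 4.3.3, trended variance) was fitted to 6 group means over 12 libraries, with 6 residual degrees of freedom. Genes needed a mean of at least 10. Alternatives were other pseudocounts (0.5 and 5), filters and scalings, a fit without the trend, a fit to 8 libraries, a replicate block, leaving out each library, and edgeR 4.0.16 and DESeq2 1.42.0 on recovered reads. The scripts were tested on simulated data. Replicate letters do not map to the numbered labels. Named genes were Proser1, up to 15 called genes a direction, up to 6 called members of each list (or the member with the smallest adjusted p) and all 9 study targets; other list members were named after their values were seen. Members and lists were chosen with earlier results of these data known. A few genes that meet this rule are not reported here by name, but they stay in the counts and medians.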

Additional observations from a re-analysis of the deposited data

Results flagged for a closer look

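The re-expression effect differed between the stages, by the interaction test in limma, for 13 genes, of which 12 are given here. The log2 difference between KO+Rescue and KO cells at day 2 minus that in mESCs was -2.77 for Trh, -2.64 for Eomes, -1.98 for Foxn4, -1.51 for Lefty1, -1.31 for Nodal, -1.14 for Lefty2 and -1.02 for Pid1. It was 1.37 for Trap1a, 1.41 for Dmrt1, 1.59 for Ube2l6, 1.66 for Peg10 and 2.33 for Sema6a. With 2 libraries a group, no group was large enough to look for a single library that stood apart.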

How the results depend on the processing

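The 13 calls by stage became 4 with no filter, 7 with equal library totals, 4 without the variance trend, 61 with only the 8 KO+Rescue and KO libraries and 90 in DESeq2, and 1 to 2 when 1 library was left out, where the remaining library of that group is assumed to vary like the other groups. TMM scaling gave 13 (7 higher, 6 lower) and edgeR 15 (9 higher, 6 lower). The letters A and B were not taken to pair the libraries, since A minus B deviations of 15 group pairs correlated between -0.048 and 0.413, with 6 over 0.1, and a replicate block gave 65 calls by stage, 584 in mESCs and 1183 at day 2. The day 2 count of 281 was 161 with no filter, 176 with equal totals, 178 without the trend, 1256 with 8 libraries, 742 in DESeq2 and 32 to 61 without 1 library. The mESC count of 232 was 529 with 8 libraries, 386 in DESeq2 and 22 to 170 without 1 library. The causes were not tested, beyond the fewer libraries of the leave-out fits. With equal totals the median stage change of all genes was 0.34 in KO+Rescue, 0.35 in KO and 0.21 in WT cells, against -0.03, 0.02 and -0.02 as deposited, and the stage calls split into 6171 higher and 2497 lower, 6240 and 2527, and 4966 and 2379. The fit to 8 libraries was not run for WT. The sign of Prdm8 turned in edgeR (1.44) and DESeq2 (0.22), and those of Pcdhga1 (-1.13 to 0.08), Rpl18 (-0.36 to 0.01) and Tbx15 (-0.04 to 1.13) did when 1 library was left out. With 2 libraries a group, only differences between the stages well above the median SE of 0.28 could be called. Pid1, the last gene inside the threshold, had -1.02, and Fst, at -1.6 ± 0.29, was outside it. A gene or list without a call can thus still hold differences of such sizes.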
